A study of Rattus norvegicus with 4 samples.

Results

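The broad shared regions described here are stretches of open chromatin of at least 2000 bp that were present in all 4 ATAC-seq libraries of rat retinal ganglion cells (RGCs). They were chosen by merging the open chromatin regions (OCRs) of the 4 lists wherever they overlapped by at least 1 bp on the 20 numbered chromosomes, and by keeping each merged region of at least 2000 bp that held an OCR of every library. Of 224715 merged regions, 81097 were shared by all 4 libraries and 550 met the width limit. The 550 members made up 0.678% of the shared regions by number and 1.95% of their summed width, or 1.24 Mb. Because width and presence in every list selected the members, both are given as a description with no test.

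RGCs are the neurons that send the axons of the optic nerve from the eye to the brain. ATAC-seq uses a transposase that cuts DNA where chromatin is accessible, so that sequenced fragments pile up over promoters, enhancers and other sites free of nucleosomes. Most such sites are short. Broad stretches of accessibility are known from CpG-rich promoters and from clusters of enhancers, where several factor-bound sites lie side by side and merge into a single call or a chain of calls.

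The study compared RGCs at embryonic day 21 (E21), when these cells grow axons well, with RGCs at postnatal day 11 (P11), when that capacity is low, with 2 libraries per stage from independent litters. Retinas were dissected from Sprague Dawley embryos or pups, and the RGCs were purified by immunopanning, in which other cells are first removed and RGCs are then caught by their Thy1 surface protein. Each library came from 300000 cells frozen before the assay, and the labels name no treatment or genetic change in either group. As each library came from a litter and not from 1 animal, the spread between libraries is a spread between litters.

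The lists held 125917 and 154394 OCRs at E21 (replicates 1 and 2) and 154772 and 166702 at P11, with a median width of 379 to 400 bp. E21 replicate 1 was the shortest list, and it covered 58.6 Mb against 73.3 to 79.2 Mb in the other libraries. Only OCRs that passed the authors' limit were listed, so that a base outside an OCR is a base that was not called, not one known to be closed. The regions could not be assigned to genes, because the annotation used here was of another genome build than the lists (Rnor_6.0, rn6), and the RGC label was therefore not checked against marker genes.

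The members were 2000 to 3426 bp wide, with a median of 2165.5 bp and quartiles of 2069 and 2367 bp, against a median of 709 bp over all shared regions. Most lay near the limit. There were 182 members under 2100 bp, 81 of at least 2500 bp and 7 of at least 3000 bp. The members just inside the limit were chr12:17415686-17417685 (2000 bp), chr1:50827012-50829012 (2001 bp) and chr1:101773896-101775896 (2001 bp), and the shared regions just outside it were chr8:54132369-54134367 (1999 bp), chr3:114175424-114177422 (1999 bp) and chr10:27972883-27974880 (1998 bp). The 3 regions inside the limit had mean percentile ranks of 91.0, 87.9 and 90.9, and the 3 outside it 90.6, 94.6 and 70.6. Here and below, the percentile rank is the place of a region's best OCR in the library's own list, ordered by the authors' −log10 q, with 100 the strongest. As the nearest set in width, 2925 shared regions of 1500 to under 2000 bp served as a comparison.

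Of 553 merged regions of at least 2 kb, 3 were missing from a library, while 81097 of the 224715 merged regions of any width were shared by all 4. A merged region takes its width from the OCRs of all 4 lists, so that width and presence in every list are not independent. The region chr4:176617491-176619591 had no OCR in E21 replicate 2 although E21 replicate 1 covered 2100 bp of it. The region chr9:8772928-8775050 was likewise absent from E21 replicate 2 and had 2123 bp of OCR in E21 replicate 1. The region chr13:89445354-89447626 was called in both E21 libraries, with 2243 and 1211 bp, and in neither P11 library.

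The widest member was chr3:147863705-147867130 (3426 bp), with 3, 3, 2 and 2 OCRs in E21 replicates 1 and 2 and P11 replicates 1 and 2. The OCRs covered 2964, 2988, 3078 and 3222 bp in the same order, and the ranks were 95.4, 94.1, 96.7 and 95.3. The region was thus strong and nearly filled in every library, and the gaps between its OCRs differed between libraries, as the map of its OCRs shows. At chr11:83973834-83976974 (3141 bp), a single OCR of 3056, 3067 and 3047 bp filled the region in the E21 libraries and P11 replicate 1, and P11 replicate 2 had 2 OCRs that covered 2909 bp. The region chr2:148606737-148609716 (2980 bp) was 1 OCR of 2971, 2968, 2939 and 2933 bp in the 4 libraries, which was the largest stretch, 2929 bp, common to all 4.

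**Figure D1:**
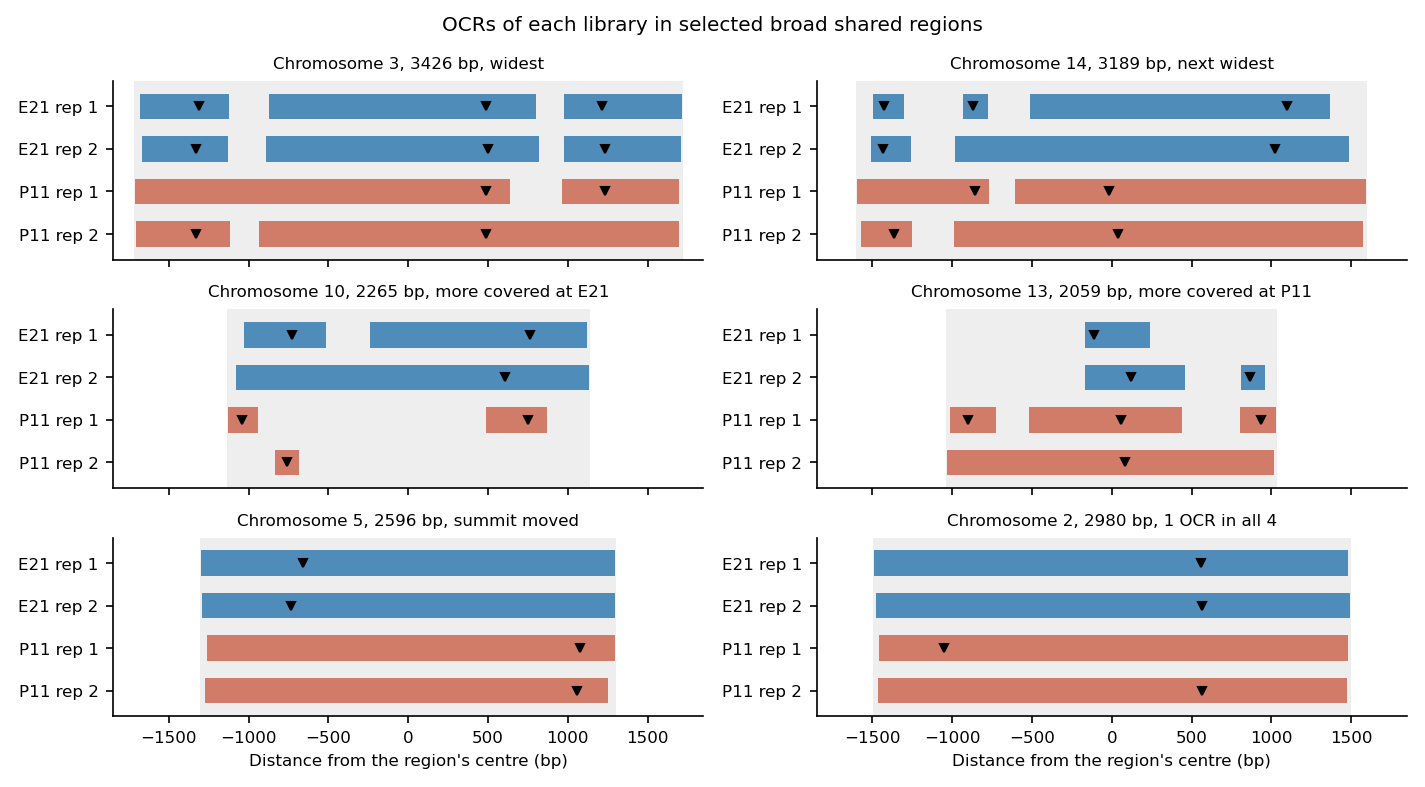
OCRs of each library (bars, E21 blue and P11 red) in 6 broad shared regions, with distance from the region's centre in bp on the x axis, the libraries on the y axis, the merged region in grey and OCR summits as triangles. The regions are the 2 widest (3426 and 3189 bp), those with the largest shift in covered share towards E21 (2265 bp) and P11 (2059 bp), the largest summit move (2596 bp) and a region that was 1 OCR in all 4 libraries (2980 bp).

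The other 7 of the 10 widest members varied in how far each stage covered them. The region chr1:221771156-221774226 (3071 bp) had 2187 and 2240 bp of OCR at E21 and 2671 and 3071 bp at P11, so that both P11 libraries covered more of it. The region chr1:8127461-8130517 (3057 bp) was a single OCR of 2977 and 3035 bp at E21 and was split into 3 and 2 OCRs of 2270 and 2219 bp in sum at P11. At chr4:151985575-151988539 (2965 bp), 1 OCR of 2136 and 2916 bp at E21 stood against 2 OCRs of 1600 and 2016 bp in sum at P11. At chr2:77630888-77633848 (2961 bp) the covered lengths were 2643 and 2931 bp at E21 and 2416 and 2349 bp at P11. The regions chr14:2389371-2392559 (3189 bp), chr1:56035664-56038686 (3023 bp) and chr7:123168229-123171230 (3002 bp) had 0 bp called in both E21 libraries and neither P11 library, and 167, 15 and 187 bp called in both P11 libraries and neither E21 library. In the region of 3023 bp the stages overlapped in covered length, with 2624 and 2464 bp at E21 and 2515 and 2753 bp at P11. None of the 10 widest met the limits for a shift of covered share or rank between the stages given below.

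The breadth of a member was seldom the breadth of a single OCR in every library. An OCR of at least 2 kb was called inside 118 and 238 members in E21 replicates 1 and 2 and inside 145 and 184 in P11 replicates 1 and 2. It was called in 0, 1, 2, 3 and 4 libraries for 179, 178, 105, 55 and 33 members. The 178 members that reached 2 kb in a single library had it in E21 replicate 2 in 82 cases, in P11 replicate 2 in 49, in P11 replicate 1 in 33 and in E21 replicate 1 in 14. E21 replicate 2 therefore had the most OCRs of this width and E21 replicate 1 the fewest, and the P11 libraries lay between them. A further 32 members had such an OCR in both E21 libraries and neither P11 library, and 28 in both P11 libraries and neither E21 library. When the regions were merged again from 3 libraries, 55 had an OCR of at least 2 kb in each of the 3 without E21 replicate 1 and 58 without P11 replicate 1.

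The members held fewer OCRs in each E21 library than in each P11 library. A single OCR represented 339 (61.6%) and 388 (70.5%) of the members at E21 and 294 (53.5%) and 302 (54.9%) at P11. The mean number of OCRs per member was 1.44 and 1.33 at E21 against 1.58 and 1.54 at P11, and the libraries of the stages did not overlap. The stage means were 1.38 ± 0.081 (SD, n = 2) and 1.56 ± 0.023 (SD, n = 2), a difference of 0.177 OCRs per member (exact two-sided permutation test, p = 0.333). With 2 libraries per stage 0.333 is the smallest p such a test can give, so that none of the tests over libraries could pass 0.05. With lists cut to an equal number of OCRs, the difference was 0.104 (exact two-sided permutation test, p = 0.667), so that the stages then overlapped, and without E21 replicate 2 it was 0.113. In the shared regions of 1500 to under 2000 bp, the corresponding means were 1.20 ± 0.052 and 1.27 ± 0.0065 (SD, n = 2 each).

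**Figure D2:**
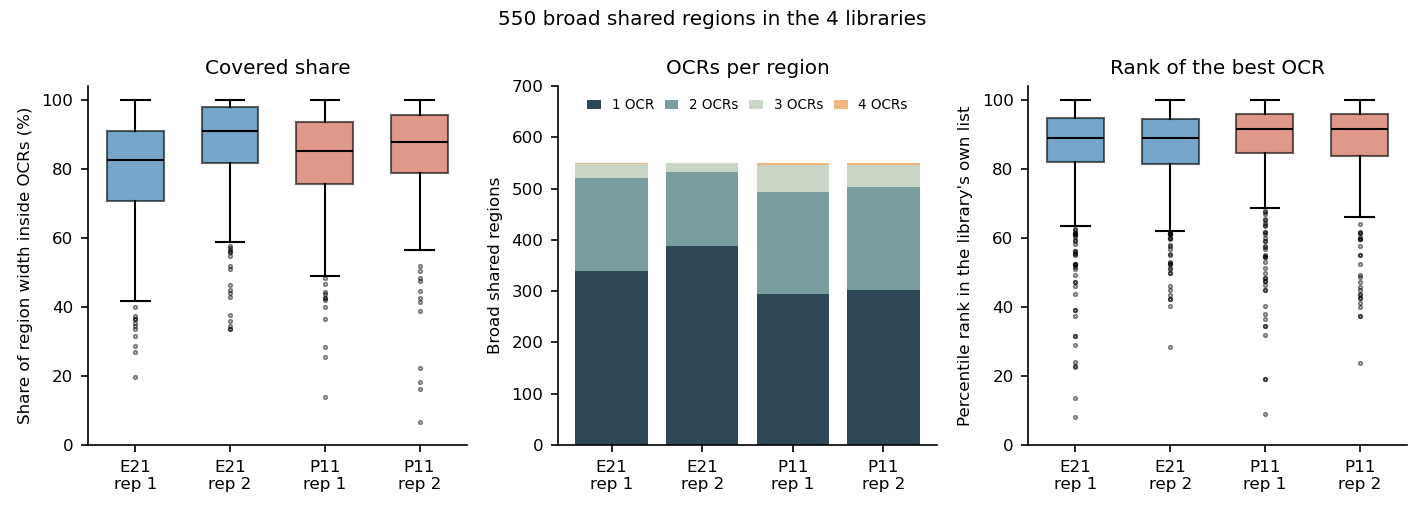
The 550 broad shared regions in each library, as boxes (median, quartiles, whiskers of 1.5 interquartile ranges, points beyond) of the share of their width inside OCRs in percent, as stacked bars of the number of regions with 1 to 4 OCRs, and as boxes of the percentile rank of the best OCR. The median covered share was lowest (82.5%) and highest (91.0%) in the 2 E21 libraries, the bars for 1 OCR were shorter at P11, and the median ranks were 88.8 to 88.96 at E21 and 91.5 to 91.6 at P11.

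Member by member, 154 regions were 1 OCR in all 4 libraries and 39 were split in all 4. There were 50 members that were 1 OCR in both E21 libraries and split in both P11 libraries, and 19 with the reverse. These counts were not made over all shared regions. There, too, the mean number of OCRs was lower in the E21 libraries (1.035 and 1.026) than in the P11 libraries (1.044 and 1.043). More OCRs in both P11 libraries than in both E21 libraries were found in 58 members (10.5%), against 0.795% of all shared regions and 5.47% of the shared regions of 1500 to under 2000 bp. More OCRs in both E21 libraries were found in 21 members (3.82%), against 0.367% and 2.6%. Wide regions have more room for several OCRs, so that the share over all shared regions is not a like background for this count.

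The most divided members had up to 4 OCRs in a library. The region chr4:55406721-55409673 (2953 bp) had 4, 3, 4 and 2 OCRs in E21 replicates 1 and 2 and P11 replicates 1 and 2, and chr1:43589789-43591794 (2006 bp) had 3, 2, 3 and 4. The region chr1:250298780-250301487 (2708 bp) was 4 OCRs in E21 replicate 1 and a single OCR of 2537 bp in E21 replicate 2, and had 3 and 4 OCRs at P11. Libraries of the same stage differed from each other in each of these 3 regions, which were picked after their values were seen.

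Most bases of the members were open at both stages. Of their summed width, 66.2% lay in OCRs of all 4 libraries and 12.5% in OCRs of 3. Bases in OCRs of both E21 libraries and neither P11 library made up 4.12%, or 51.0 kb, and those in both P11 libraries and neither E21 library 4.52%, or 55.9 kb. A further 3.6% were called in 1 library of each stage and 9.10% in a single library. The stretch common to all 4 libraries had a median of 1534 bp per member, or 67.4% of the width, with quartiles of 54.8 and 79.3%. It reached 1000 bp in 478 members and 2000 bp in 44, and was absent from 1 member, chr10:83822634-83824898.

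Of the bases called only at E21, 61.5% lay outside the span from the first to the last base common to all 4 libraries, and of those called only at P11, 78.5% did. Such bases need not lie at the edge of a member, and the like share of its other bases was not computed. An unbroken run of at least 200 bp called in both E21 libraries and neither P11 library was found in 76 members, the P11 counterpart in 88, and both kinds in 6. The other 392 members had neither. Runs of at least 500 bp were found in 8 members for E21, with a longest of 962 bp at chr15:48831037-48833447, and in 12 for P11, with a longest of 1004 bp at chr3:22858437-22860496. Such runs were not counted in the other shared regions, so that these counts have no background.

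The share of a member's width inside OCRs had a median of 82.5% and 91.0% at E21 and of 85.3% and 87.7% at P11. The P11 values lay between the E21 values. The stage means were 86.7 ± 6.0% and 86.5 ± 1.68% (SD, n = 2 each), a difference of -0.226 percentage points (P11 minus E21, exact two-sided permutation test, p = 1). Its sign rested on single libraries, with a difference of 3.45 without E21 replicate 2 and of 0.707 without P11 replicate 1. Coverage of at least 95% was reached by 93 and 203 members at E21 and by 118 and 146 at P11, and coverage under 50% was seen in 23, 9, 16 and 10 members in the same library order. Over the members, covered shares correlated within a stage with a Spearman rho of 0.621 (E21) and 0.473 (P11) and across stages with -0.0030 to 0.227, where the points of each pair share the merged edges that they helped to set.

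A member was called coverage-shifted where both libraries of a stage covered a larger share of it than both of the other stage and the stage means lay at least 25 percentage points apart. There were 27 members with more coverage at E21 (4.91%) and 36 with more at P11 (6.55%), against 11.3% and 14.5% of all shared regions and 5.3% and 8.89% of those of 1500 to under 2000 bp. A limit in points asks for more bp in a wider region, and the part of width in these shares was not tested. With a limit of 500 bp in place of 25 points, 36 members (6.55%) had more coverage at E21 and 43 (7.82%) at P11, against 3.35% and 6.36% of the shared regions of 1500 to under 2000 bp and 0.847% and 1.39% of all shared regions, of which many are narrow. The counts at 25 points depended on single libraries. They were 50 at E21 and 20 at P11 without E21 replicate 1, 17 and 57 without E21 replicate 2, and 41 and 32 without P11 replicate 2.

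The largest shift towards E21 was at chr10:83822634-83824898 (2265 bp). OCRs covered 1878 and 2210 bp of it at E21 and 575 and 150 bp at P11, and its ranks were 66.1 and 73.7 at E21 against 19.3 and 23.6 at P11. The region chr15:48831037-48833447 (2411 bp) was covered over 1883 and 2189 bp at E21 and over 336 and 389 bp at P11. Both regions were broad at E21 and held only short OCRs at P11, with no overlap between the stages.

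The next 3 shifts towards E21 were smaller and came with other changes of strength. At chr10:107951284-107954074 (2791 bp) the covered lengths were 2543 and 2629 bp at E21 and 1585 and 1246 bp at P11, and the mean rank differed by -0.1 points. At chr12:37984499-37986658 (2160 bp) they were 1825 and 2155 bp at E21 and 944 and 1247 bp at P11, while the ranks were higher at P11 (92.6 and 92.0) than at E21 (86.0 and 83.9). At chr13:97173270-97175350 (2081 bp) they were 1669 and 2038 bp at E21 and 886 and 1256 bp at P11. Coverage and rank therefore moved in different directions in part of these regions.

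Towards P11, chr13:72682847-72684905 (2059 bp) had the largest shift, with 405 and 777 bp of OCR at E21 and 1478 and 2047 bp at P11. The region chr3:22858437-22860496 (2060 bp) was a single OCR in every library, of 750 and 885 bp at E21 and 1864 and 2060 bp at P11, with ranks of 70.8, 77.7, 81.8 and 74.3. At chr8:33909534-33911642 (2109 bp) the covered lengths were 668 and 708 bp at E21 and 1552 and 2056 bp at P11. In the regions on chromosomes 3 and 8 the called stretch was longer at P11 while the mean ranks of the stages differed by only 3.8 and 4.1 points.

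The same was seen at chr3:173803714-173806372 (2659 bp), with 890 and 957 bp of OCR at E21 and 2026 and 2608 bp at P11, ranks of 87.2, 92.8, 92.0 and 86.8, and a highest pileup that differed by 0.00 on the log2 scale. The region chr1:82502424-82504492 (2069 bp) had 557 and 1056 bp at E21 and 1997 and 1783 bp at P11, and its ranks were 8.1 and 42.3 at E21 against 74.7 and 80.9 at P11.

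**Figure D3:**
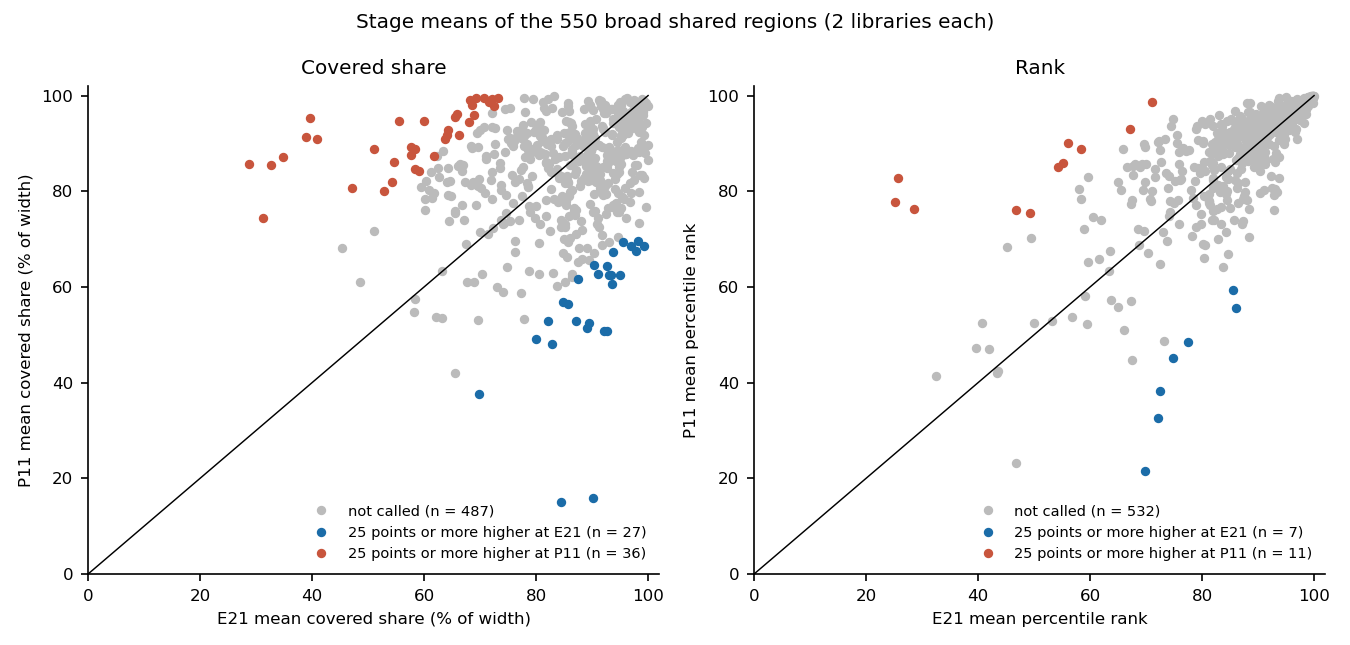
Mean of the 2 P11 libraries (y axis) against the mean of the 2 E21 libraries (x axis) for each of the 550 broad shared regions, for the share of the width inside OCRs in percent (left) and the percentile rank (right), with coloured points for members shifted by at least 25 points. The 27 and 36 coverage-shifted members lie along the edges of a cloud, and the 7 and 11 rank-shifted members lie off a cloud packed into the upper right corner.

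By rank, the members belonged to the stronger OCRs of each list, as did the shared regions of 1500 to under 2000 bp. The median rank was 88.96 and 88.8 in the E21 libraries, against 91.6 and 91.5 in the P11 libraries, against stage means of 68.4 and 71.1 over all shared regions. The members' stage means were 88.9 ± 0.116 and 91.6 ± 0.085 (SD, n = 2 each), a difference of 2.68 percentile points (exact two-sided permutation test, p = 0.333, the smallest possible). The libraries of the 2 stages did not overlap, and the difference was 2.67 points over all shared regions. Among the shared regions of 1500 to under 2000 bp it was 1.96 points, with stage means of 89.6 and 91.5. With lists of equal length it was 1.53 points over the members (exact two-sided permutation test, p = 0.667), so that the stages then overlapped, and with a rank weighted by OCR length it was 1.39 points. There were 192 members ranked at least 90 in all 4 libraries and 3 ranked under 50 in all 4, and 34 fell under 50 in at least 1. Width and mean rank had a Spearman rho of -0.036 over the members, whose width range had been cut by the rule.

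A rank shift was rare. In 7 members (1.27%) both E21 libraries ranked above both P11 libraries with stage means at least 25 points apart, and in 11 (2.0%) the reverse held, against 8.64% and 12.3% of all shared regions and 1.4% and 3.42% of those of 1500 to under 2000 bp. In 443 members (80.5%) both stage means were at least 75, where a shift of 25 points could not occur, against 30.3% of all shared regions. With no minimum distance, 262 members ranked higher in both P11 libraries and 110 in both E21 libraries. This count was not made over all shared regions, whose median rank was also higher at P11 (stage means of 68.4 at E21 and 71.1 at P11). Without E21 replicate 2 there was 1 member shifted towards E21, without P11 replicate 1 there were 3, and without P11 replicate 2 there were 5 shifted towards P11.

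The shift towards E21 was largest at chr10:83822634-83824898, described above. The region chr3:72562616-72564638 (2023 bp) ranked at 72.5 and 71.7 at E21 against 19.3 and 45.9 at P11, and chr10:61987386-61989517 (2132 bp) at 66.4 and 78.5 and at 31.9 and 44.8. The ranks at chr2:28459874-28461880 (2007 bp) were 87.8 and 84.1 at E21 against 36.4 and 74.6 at P11, with a wide gap between the P11 libraries. At chr8:66012935-66014956 (2022 bp) they were 74.8 and 74.8 at E21 against 37.8 and 52.3 at P11. In 3 of the 5, those that begin at chr10:83822634, chr2:28459874 and chr8:66012935, the covered share was also at least 25 points larger at E21.

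Towards P11, chr7:70945522-70947535 (2014 bp) ranked at 23.0 and 28.3 at E21 against 84.8 and 80.7 at P11. The regions chr1:82502424-82504492 and chr13:72682847-72684905, named above for their coverage, followed with stage differences of 52.6 and 47.8 points. The region chr7:97592979-97595469 (2491 bp) ranked at 52.1 and 60.1 at E21 against 88.5 and 91.5 at P11, and chr1:54058279-54060645 (2367 bp) at 65.5 and 44.8 and at 82.4 and 89.6. The last had no larger covered share at P11, with 2137 and 2361 bp at E21 and 2041 and 2074 bp at P11. Of the 18 rank-shifted members, 8 were also coverage-shifted.

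The height of the members was read from the pileup, the peak caller's count of stacked signal at the summit of an OCR. The authors' fold and −log10 p values fix the pileup together with the local background that the peak caller had set against it. The highest pileup per member had a median of 177.5 and 175 in the E21 libraries and of 113 in both P11 libraries. The libraries differed in overall pileup, with medians over their own OCRs of 39, 41, 30 and 31. Relative to these, the members stood 4.55 and 4.27 times as high at E21 and 3.77 and 3.65 times at P11. The stages did not overlap in either form (exact two-sided permutation test, p = 0.333, the smallest possible). The same held in the shared regions of 1500 to under 2000 bp. Their stage means were 157.5 at E21 and 98 at P11, or 3.94 and 3.21 times the library medians.

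The pileups of all 81097 shared regions were compared between the stages with limma after scaling each library to its median over these regions, and a region was called at a Benjamini-Hochberg adjusted p under 0.01 and a log2 change over 1. The SE and p of a region, here and below, rest on the spread fitted at its pileup level. They do not measure the spread of that region's own 2 libraries per stage. By this rule 13 members (2.36%) were higher at E21 and 15 (2.73%) higher at P11, against 5.98% and 6.67% of all shared regions. The shares of members were thus under those of shared regions in both directions. In the shared regions of 1500 to under 2000 bp, 3.59% and 3.08% were called. The split of the members' calls depended on how the libraries were scaled, with 53 and 5 calls after scaling to the genome-wide background of each library and 9 and 23 after quantile normalization. All shared regions moved too, with 12.6% and 3.36% called under background scaling and 5.02% and 6.2% after quantile normalization. There were 7 members higher at E21 and 5 higher at P11 under all 3 scalings. Without E21 replicate 2 the calls were 44 and 10, and there were 8 calls towards P11 without P11 replicate 1 and 8 without P11 replicate 2.

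The median log2 change over the members (P11 minus E21) was -0.16, against -0.06 over all shared regions, with 366 members below 0 and 184 above. Scaling to the background moved the median of all shared regions by -0.24, and the members then lay at -0.39. Relative to all shared regions, the members' median was lower by -0.09 under both of these scalings and higher by 0.14 after quantile normalization, so that no direction can be given for the members as a group.

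The strongest single change was at chr14:4972049-4974149 (2101 bp). Its highest pileup was 58 and 90 at E21, against 259 and 200 at P11, with no overlap, and its log2 change was 2.11 ± 0.25 (SE, limma adjusted p = 6.1184e-14). The OCRs covered 1484 and 1286 bp of it at E21 and 2101 and 1942 bp at P11, and its ranks went from 64.3 and 78.0 to 99.1 and 98.4. Height, covered length and rank thus changed together in this region, which was called higher at P11 under each of the 3 scalings.

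The next changes towards P11 were at regions already named for their rank. At chr1:82502424-82504492 the pileups were 22 and 33 at E21 against 58 and 67 at P11 (log2 change 1.67 ± 0.28, SE, limma adjusted p = 1.3e-07). At chr7:70945522-70947535 they were 32 and 34 at E21 against 78 and 70 at P11 (log2 change 1.62 ± 0.27, SE, limma adjusted p = 9.1e-08). At chr7:97592979-97595469 they were 39 and 51 at E21 against 84 and 103 at P11 (log2 change 1.52 ± 0.25, SE, limma adjusted p = 1.3e-07). The groups did not overlap in any of the 3, and the other 11 members higher at P11 had log2 changes of 1.0 to 1.32.

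Chromosome 1 held 74 of the 550 members, and 7 of the 15 higher at P11 but 0 of the 13 higher at E21. With background scaling, 1 of its members was called higher at P11 and 9 higher at E21, and after quantile normalization 11 and 0 were. Of 8 members that began between 50 and 60 Mb on this chromosome, 4 were higher at P11. With background scaling 0 were, and after quantile normalization 4. Of all 408 shared regions in this window 19.9% were higher at P11 (7.35% with background scaling), against 6.42% of those of the whole chromosome. The 4 included the neighbours chr1:56023505-56025695, with pileups of 225 and 204 at E21 against 351 and 322 at P11, and chr1:56035664-56038686, with 131 and 115 at E21 against 191 and 175 at P11. Their log2 changes were 1.10 ± 0.32 and 1.03 ± 0.26 (SE), and 9968 bp lay between them. The window was noticed after the calls had been made and was given no test of its own.

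Towards E21, chr10:83822634-83824898 had pileups of 74 and 97 at E21 against 19 and 20 at P11 (log2 change -1.66 ± 0.28, SE, limma adjusted p = 1.4e-07). The region chr2:28459874-28461880 had 147 and 124 at E21 against 24 and 42 at P11 (log2 change -1.63 ± 0.25, SE, limma adjusted p = 9.2e-09). The region chr12:43431195-43433352 (2158 bp) had 105 and 111 at E21 against 34 and 28 at P11, with a log2 change of -1.35 ± 0.26 (SE, limma adjusted p = 4.8e-06). All E21 values lay above all P11 values in these 3 regions. The highest E21 pileups among the called members were at chr2:200546634-200548821 (2188 bp), with 290 and 331 at E21 against 88 and 90 at P11, where the ranks were 96.1 and 97.8 against 91.3 and 90.5.

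**Figure D4:**
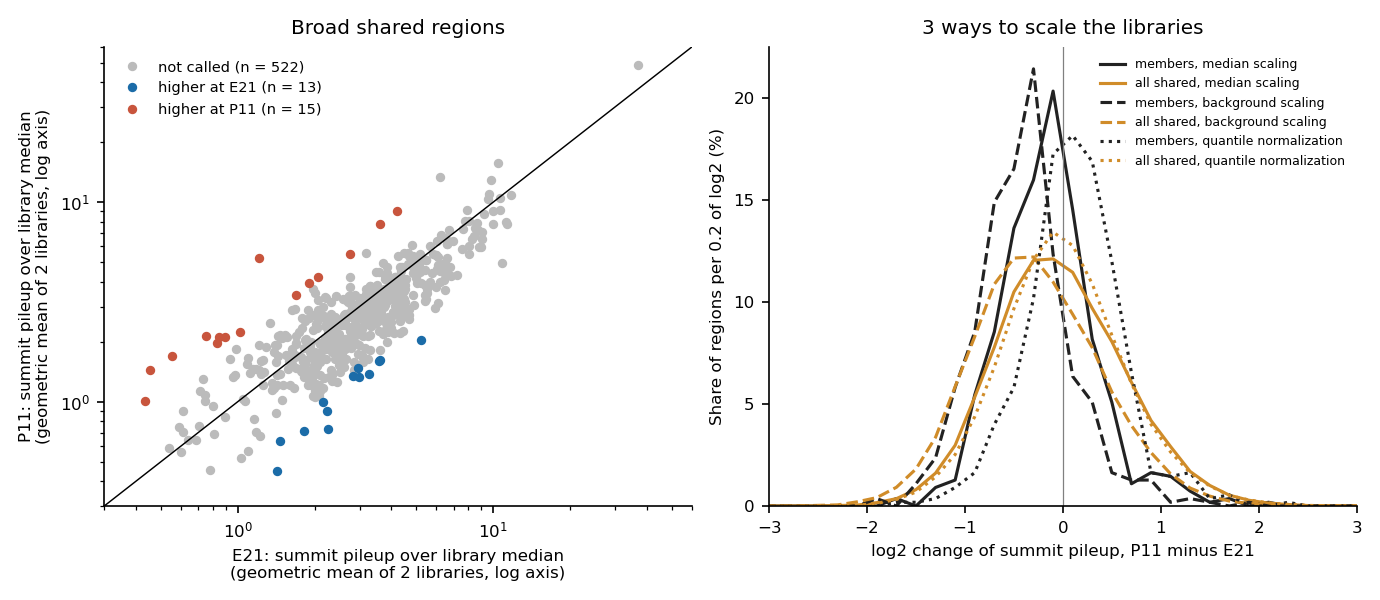
Left, highest summit pileup of the 550 members over the library's median across all shared regions, at P11 (y axis) against E21 (x axis). Both axes are log axes and show geometric means of 2 libraries. The 13 members called higher at E21 are in blue and the 15 higher at P11 in red. Right, share of the members (black) and of all shared regions (orange) in percent per 0.2 of log2 change under 3 scalings, where the members' curve lies left of 0 with median and background scaling and right of it with quantile normalization.

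A longer called stretch did not always go with a higher summit. Of the 36 members with more coverage at P11, 19 had a positive and 17 a negative log2 change of pileup, and of the 27 with more coverage at E21, 21 had a negative and 6 a positive one. The coverage call and the pileup call fell on the same member in the same direction in 11 cases. Over the 550 members the difference in covered share and the log2 change had a Spearman rho of 0.091, and the difference in rank and the log2 change 0.892, where rank and pileup are read from the same OCR lists.

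The place of the strongest summit inside a member was more alike within a stage than between stages. The summits of the 2 E21 libraries lay a median of 17 bp apart and those of the P11 libraries 36 bp, and the 4 pairs across stages 59 to 77 bp. They lay within 100 bp of each other in 77.3% of members at E21, in 68.5% at P11 and in 56.4 to 58.7% across stages. In 298 of the 550 members both stages had their own summits within 100 bp, and in 217 all 4 summits did. Both stages had their own summits within 100 bp in 54448 of the 81097 shared regions. The same held in 1803 of the 2925 shared regions of 1500 to under 2000 bp. The other summit values of this paragraph were not computed over these sets.

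In 34 members (6.18%) the summits of each stage lay within 100 bp of each other and the stages at least 500 bp apart, against 0.588% of all shared regions and 4.21% of those of 1500 to under 2000 bp. Narrow regions have no room for such a move, so that the share over all shared regions is not a like background. The moves had a median of 959 bp. The largest was at chr5:127403485-127406080 (2596 bp), which was a single OCR of 2594, 2593, 2560 and 2521 bp in the 4 libraries. Its summit lay 642 and 567 bp from the region's start at E21 and 2374 and 2354 bp from it at P11, while its pileup changed by -0.08 on the log2 scale.

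The next 3 moves differed in what went with them. At chr14:1469176-1471259 (2084 bp) the summit lay at 511 bp in both E21 libraries and at 1938 and 1949 bp at P11. At chr2:198320613-198322911 (2299 bp) it lay at 505 and 508 bp at E21 and at 1899 bp in both P11 libraries, and the log2 change of pileup was 0.04. At chr13:113761892-113763917 (2026 bp) it lay at 439 and 435 bp at E21 and at 1788 bp in both P11 libraries, and the covered length was 1138 and 1200 bp at E21 against 1962 and 1655 bp at P11, a coverage shift towards P11. These regions were picked for their distance after the rule had been applied. The summit is that of the OCR with the best −log10 q, which at the chromosome 14 region had a pileup of 101 in P11 replicate 1, where another OCR reached 108. Taking the OCR of the highest pileup instead gave 33 moved members. Of the 34 members, 1 was also called by pileup and 5 by coverage.

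The local background of a member is the level that the peak caller set against its best summit. Its median over the members reached 20.5 and 22.8 in the E21 libraries, against 16.6 and 16.1 in the P11 libraries. These medians were 4.27, 4.53, 3.86 and 3.86 times the genome-wide background. All shared regions had lower stage means of this level, 6.47 for E21 and 5.77 for P11. Those of 1500 to under 2000 bp had stage means of 15.9 and 11.9. How far a member's own signal raised this level, and so lowered its fold, was not tested. Neither value can therefore be read as a property of the surroundings alone. The median fold at the best summit was 8.55 and 7.57 at E21 against 6.46 and 6.59 at P11, and in the shared regions of 1500 to under 2000 bp its stage means were 9.68 ± 0.586 and 7.75 ± 0.206 (SD, n = 2 each).

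The highest local background was at chr13:33502424-33505313 (2890 bp), with 188, 157, 177 and 169, and the same region had the highest mean rank. Its pileups of 2299, 2111, 2166 and 2089 exceeded those of every other member, and its summit lay 2633 bp from the start in each library. No other member had a pileup over 749 in any library. At chr1:99054564-99056936 (2373 bp) the local background was 66.3 and 54.1 at E21 against 110.5 and 99 at P11, with pileups of 386, 353, 624 and 540 (log2 change 1.11, limma adjusted p = 0.032, not called). The other 3 members of the 5 with the highest local background were chr12:1508918-1510957, chr14:1460099-1462179 and chr9:50556659-50559211, with values of 53.4 to 69.8 in all libraries.

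The next highest mean ranks were at chr2:122875260-122877420 (2161 bp), with pileups of 748, 653, 452 and 494, and at chr1:180971117-180973149 (2033 bp), with 692, 497, 558 and 562. The first of these was 1 OCR of 1549 and 1568 bp at E21 and of 2161 and 2126 bp at P11, a coverage shift towards P11 at a region ranked 99.9 in every library. The other 2 of the 5 highest were chr6:33689768-33691792 (2025 bp) and chr14:37282972-37285133 (2162 bp), ranked 99.7 to 99.9.

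At the other end, chr15:48831037-48833447 had the lowest mean rank, with 43.9, 49.7, 9.1 and 37.3. It was followed by chr14:94346125-94348184 (2060 bp), with 22.7, 42.2, 40.1 and 42.5, chr7:31264639-31266654 (2016 bp), chr8:73336680-73339089 (2410 bp) and chr12:3370851-3372945 (2095 bp). The pileups at chr14:94346125-94348184 were 32, 41, 30 and 31, near the library medians. These members were chains of 1 to 4 weak OCRs, with no library holding an OCR of 2 kb except E21 replicate 2 at chr15:48831037-48833447.

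The members were spread over all 20 numbered chromosomes, from 0.475% of the shared regions of chromosome 11 (12 of 2527, Wilson 95% interval 0.272 to 0.828%) to 1.09% of those of chromosome 7 (51 of 4673, 0.831 to 1.43%). These intervals cover counting error only. Within 10 kb, a member had a mean of 1.68 other merged regions, against 1.81 for the shared regions of 1500 to under 2000 bp and 2.53 for all shared regions, and 22.9%, 21.8% and 12.3% had none. Among 18 neighbouring pairs of members within 50 kb, 6 lay within 10 kb, and the closest pair was 4994 bp apart at chr19:37224523-37226544 and chr19:37231539-37233867. The log2 changes of that pair were -0.42 and 0.35, and neither was called. The pair on chromosome 1 described above was the only one of the 18 in which both members were called by pileup.

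Over all measures, 437 members (79.5%) had no call of a shift in rank, coverage at 25 points, summit or pileup between the stages. Against all shared regions, the share of members called was smaller for rank, covered share and pileup and larger for the number of OCRs, the covered length in bp and the summit position, as the plot of the shares shows. The width limit bears on each of these measures, and its part in the differences was not tested.

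**Figure D5:**
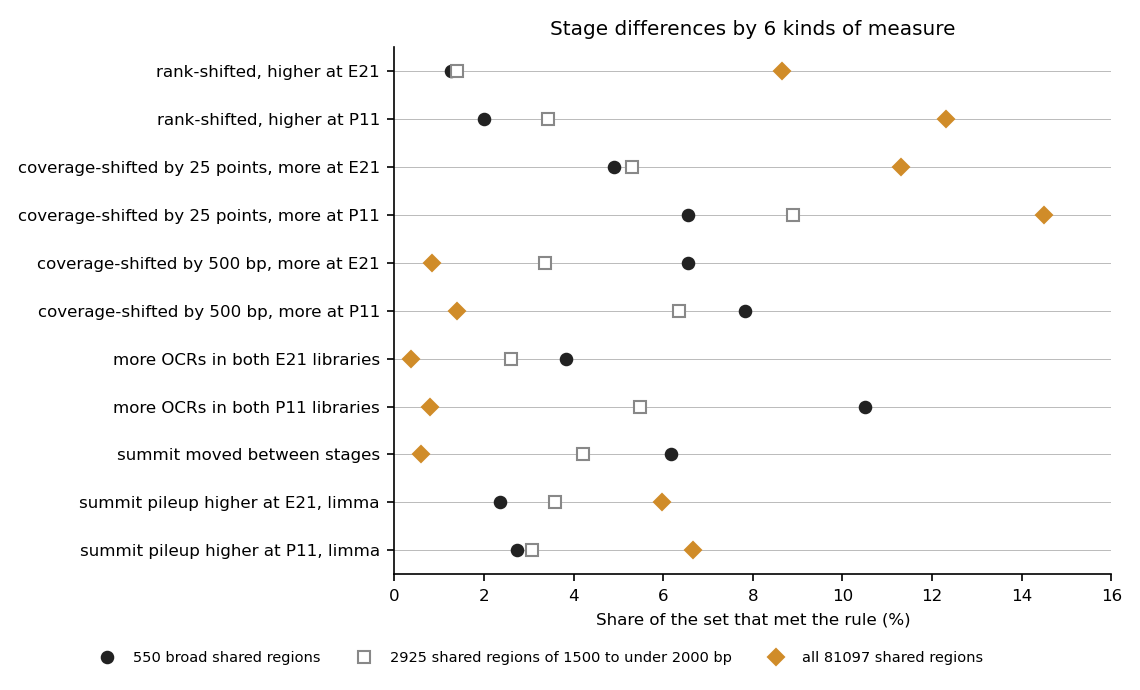
Share in percent (x axis) of the 550 broad shared regions (black circles), of the 2925 shared regions of 1500 to under 2000 bp (open squares) and of all 81097 shared regions (orange diamonds) that met each rule for a difference between E21 and P11 (y axis). The circles lie left of the diamonds for rank, coverage in points and pileup and right of them for coverage in bp, number of OCRs and summit position.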

How the data were processed

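Members and lists were chosen with earlier results of these data known. The authors mapped the reads and called OCRs in each library on its own with the ATAC-seq Integrative Analysis Package, without pooling replicates, and the submitters' processing notes name MACS2 and Rnor_6.0 (rn6); versions and the limit on q are not given in the sources used here. The deposited lists give, per OCR, a score (the −log10 q times 10, rounded down), the fold at the summit over the local background as a ratio, the −log10 p and −log10 q, and the summit position. The authors' −log10 q values are not comparable between lists, so each was turned into a percentile rank in its own list. The lists held 0 duplicate lines. Pileup and local background were solved from the deposited fold and −log10 p, and pileups came out whole within 0.02 for 100% of OCRs. Reads were not used, so depth is known only through the number of OCRs and their pileups.

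Lists were merged in Python 3.11.15 with numpy 2.4.6, pandas 2.3.3 and scipy 1.17.1. Library values (one per library) were compared by exact two-sided permutation tests. The log2 highest pileup of all shared regions was fitted in limma 3.58.1 (R 4.3.3, mean-variance trend, Benjamini-Hochberg adjustment), a test added after the lists were seen, with the fold and p limits the study used for its own regions. The fit found no spread between regions beyond the trend, so every region was given the spread of its level. Both steps were tested on simulated data before use. Named regions were the 10 widest, the 5 largest coverage and rank shifts each way, the 5 highest and lowest mean ranks, the 3 on each side of the width limit and the 5 highest local backgrounds, plus called members and regions named as picked later. The replicate numbers did not pair the libraries, which came from independent litters (Pearson r of replicate differences between stages over shared regions 0.065). Alternatives were a −log10 q of at least 5, 125000 OCRs per library, each library left out, a merging gap of 100 bp, other width limits, rankings, minimum differences and scalings. Genes and sequences were not used here, because the reference tables were of another build. There were 0 value columns of other samples.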

Additional observations from a re-analysis of the deposited data

Results flagged for a closer look

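Chromosome X was outside the numbered chromosomes used above and held regions of the same kind. Of its 1328 regions shared by all 4 libraries, 17 were at least 2000 bp wide (1.28%), with widths of 2010 to 2739 bp, and chromosome Y held 0. The share on chromosome X compares with 0.678% on the numbered chromosomes, and no test of this difference was made.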

How the results depend on the processing

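The number of members was 419 to 505 when a library was left out of both the merging and the presence rule, 7 at a width of at least 3 kb and 3475 at 1.5 kb. Members with an OCR of at least 2 kb in every library were 36 to 58 with a library left out and 1 at 3 kb. The difference in covered share took the other sign with a gap of 100 bp (0.0073) and at 3 kb (3.3), and ranged from -4.75 (without E21 replicate 1) to 3.45 (without E21 replicate 2). The differences in OCRs per region and in rank kept their sign in all 9 and 11 alternatives. These include pairing libraries by number, which cannot change a difference of stage means. Their size was not kept, with 0.104 and 1.53 for lists of equal length (exact permutation p = 0.667 for both). At 3 kb there were 0 members in each direction for rank and 0 for coverage. A limit of 10 points gave 31 and 64 rank-shifted members (E21, P11) and 103 and 108 coverage-shifted ones, and the length-weighted rank gave 11 towards E21. Leaving out a library gave 1 to 8 and 5 to 11 for rank and 17 to 50 and 20 to 57 for coverage. A distance of 1000 bp left 14 moved summits. Pileup calls were 77 and 29 at an adjusted p under 0.05, 53 and 5 with background scaling, 23 towards P11 after quantile normalization, and 9 to 44 and 8 to 16 with a library left out. The members' median log2 change took the other sign after quantile normalization (0.11) and without E21 replicate 1 (0.0042), and was lowest without E21 replicate 2 (-0.36). The cause of these changes was not tested.

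With a replicate block in limma the calls were 14 and 16, 1 more in each direction than as reported. Pairing libraries by number cannot change the 3 stage differences, which stayed at -0.226, 0.177 and 2.68. Over the members, replicate differences of the stages had a Pearson r of 0.029. The share of members over start sites was not run. With 2 libraries per stage, tests over libraries could not pass 0.05, and with a library left out the lone library of a stage was assumed to vary like the others.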
